A study of Mus musculus with 12 samples.

Results

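The genes described here are 9 that code for transcription factors of the myeloid lineages: *Cebpa*, *Cebpe* and *Gfi1* (granulocytic), *Spi1* and *Irf8* (monocytic), and *Cebpb*, *Cebpd*, *Irf4* and *Maf* (macrophage and inflammatory). They were chosen by name, each matched 1 identifier among the 54446 genes counted, and all 9 passed the filter on low counts in every comparison. The 3 class names order the text. Several of the factors act in more than 1 lineage.

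RNA immunoprecipitation followed by sequencing (RIP-seq) was used to ask which transcripts YTHDF2 holds in tumor-infiltrating CD11b+ myeloid cells, without and with local tumor irradiation (IR). All mice were wild-type, given in the methods as *Ythdf2* f/f, were aged 8 to 10 weeks and carried subcutaneous MC38 tumors, a mouse colon carcinoma line. Tumors were either not irradiated (Ctrl) or had received 1 dose of 20 Gy, and cells were collected 3 days after IR. In each condition cells were pooled 3 times, from 5 mice a pool, and the methods call these pools technical replicates. Each pool gave an Input library, a measure of transcript abundance, and a YTHDF2 IP library, so there were 12 libraries in 4 groups of 3. P-values measure the spread between these pools, which may be technical. The sample records name an Abcam antibody, isolated mRNA and tumors or blood as the source of cells, whereas the methods name an Aviva antibody, a total RNA kit and tumors only.

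C/EBP proteins are basic leucine zipper factors: C/EBPα starts the granulocyte and monocyte programs, and C/EBPε completes granule formation in late neutrophil precursors. C/EBPβ drives emergency granulopoiesis, and both C/EBPβ and C/EBPδ drive inflammatory genes. PU.1, the ETS factor coded by *Spi1*, opens myeloid enhancers, where IRF8 and IRF4 bind beside it, while GFI1 represses monocytic genes in granulocyte precursors and c-MAF acts in macrophages. YTHDF2 is a cytoplasmic reader of N6-methyladenosine (m6A) that brings bound transcripts to the RNA decay machinery, and m6A is placed mostly in long exons and near stop codons at sequences of which GGACT is a common form.

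The deposited counts do not map m6A, so the sequences only show where that letter string occurs in the transcripts. GGACT was searched on the sense strand of the principal GENCODE M21 transcript of each gene (GRCm38), with no overlap with another motif considered. *Cebpe* (1241 bases) and *Irf8* (2847 bases) had no match. *Cebpa*, *Cebpb* and *Cebpd* had 4, 4 and 5 matches, *Spi1* had 6, *Irf4* and *Gfi1* had 8 each, and *Maf* had 10. Among 13042 protein-coding genes tested in Ctrl, 91.8% of principal transcripts held the string, and the median density was 1.06 per kb, against 1.33 in *Cebpd*, 1.52 in *Cebpa*, 1.57 in *Maf*, 1.68 in *Irf4*, 2.66 in *Cebpb*, 2.80 in *Gfi1* and 2.95 in *Spi1*. Windows of 25 bases are printed for 3 genes: *Cebpd*, which had the highest IP/Input of the 9, *Spi1*, whose IP/Input fell with IR under all alternatives, and *Irf4*, which holds 8 matches and had overlapping levels in IP and Input in Ctrl. Capitals mark GGACT, and all windows lie on the + strand of GRCm38.

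The *Cebpd* matches are all in the 3′ UTR of its single exon, at chr16:15888250-15888274, chr16:15889041-15889065, chr16:15889713-15889737, chr16:15890468-15890492 and chr16:15890867-15890891 in this order.
Cebpd site 1: cttgggcactGGACTgcgagagaag
Cebpd site 2: gcaggcttgtGGACTgctgtgagtc
Cebpd site 3: gtgtagtgatGGACTggacaaagca
Cebpd site 4: agcctagagaGGACTgcaatgggca
Cebpd site 5: agcccagagtGGACTgtatagagaa

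In *Spi1*, 4 of the 6 matches are in the 5′ UTR and 2 in the 3′ UTR, at chr2:91096435-91096459, chr2:91096455-91096479, chr2:91096496-91096520, chr2:91096713-91096737, chr2:91115483-91115507 and chr2:91115551-91115575.
Spi1 site 1: cccgaagaggGGACTcttggccacc
Spi1 site 2: ccaccagaggGGACTgagaagaaat
Spi1 site 3: aaagaacagtGGACTacttcagcaa
Spi1 site 4: caccccaaggGGACTatctcccagt
Spi1 site 5: ggccgaggcaGGACTgggggcccgg
Spi1 site 6: cctcccaccaGGACTctagcccgct

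*Irf4* has 2 matches in its coding sequence, at chr13:30750749-30750773 and chr13:30757592-30757616, and 6 in its 3′ UTR, of which the first lies at chr13:30763836-30763860 and the last at chr13:30766782-30766806.
Irf4 site 1: cgggcaagcaGGACTacaatcgtga
Irf4 site 2: cctggagaggGGACTggtcctctgg
Irf4 site 3: acaagtgccaGGACTtgggtgactg
Irf4 site 8: ctggggaccaGGACTcagagatctc

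Counts on genes per library lay between 34445784 and 42382532 in the Inputs and between 27852948 and 33882664 in the IPs, so that 3 counts were worth at most 0.108 CPM (counts scaled to a common library total). Every member had at least 616 counts in every library. Reads assigned to no gene by the counting made up 26.9% to 27.0% of the uniquely aligned reads of Ctrl Inputs, 24.7% to 24.8% for IR Inputs, 41.8% to 42.7% in the Ctrl IPs and 49.4% to 54.1% in the IR IPs. This share thus moved with both fractions and conditions compared below, and its part in the results was not tested. *Itgam*, which codes for CD11b, had Input levels of 944 ± 1.39 CPM in Ctrl and 1720 ± 23.5 CPM in IR (SD, n = 3). The summed level of 10 neutrophil markers ranged over the Inputs from 10600 to 11300 CPM in Ctrl and from 13500 to 14100 CPM in IR, that of 6 monocyte markers from 1620 to 1700 and from 1830 to 1940 CPM, and that of 7 macrophage markers from 232 to 239 and from 218 to 231 CPM. The 5 carcinoma markers *Epcam*, *Krt8*, *Krt18*, *Krt19* and *Cdh1* summed over the Inputs to between 119 and 127 CPM in Ctrl and between 90.9 and 96.9 CPM in IR, with 1 and 2 of them at 0 in every library, and the 6 T cell markers to at most 1.93 CPM. Over the Inputs, the 7 dendritic cell markers summed to between 243 and 245 CPM in Ctrl and between 272 and 278 CPM in IR. The 4 B cell markers summed to between 18.6 and 20 CPM in Ctrl and between 25.2 and 27.8 CPM in IR. Which cell types carried the transcripts described here was not tested. In such bulk samples, fewer cells of a type and less RNA per cell cannot be told apart.

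Levels are given in CPM on a single scale, set by trimmed mean of M values (TMM) normalization over the 12 libraries. Per kb of merged exons, *Cebpb* was the most abundant of the 9 in the Ctrl Inputs, with 357 ± 2.46 CPM per kb (SD over 3 libraries, here and in the next sentence), followed by *Spi1* at 140 ± 4.28 and *Cebpe* at 61.0 ± 2.5. *Cebpd* (36.9 ± 0.653), *Cebpa* (23.7 ± 0.751), *Irf8* (18.02 ± 0.608), *Irf4* (12.5 ± 1.03), *Gfi1* (8.30 ± 0.498) and *Maf* (2.06 ± 0.241 CPM per kb) followed, and the gap between any neighbours in this order was larger than their SDs. The position of *Irf8* depends on the length used: per kb of its principal transcript it was at 44.7 CPM, above *Cebpd* at 36.9. Within the C/EBP family, on the same scale of CPM per kb, *Cebpb* made up 74.6% ± 0.364 (SD, n = 3) of the 4 genes' sum in the Ctrl Inputs, *Cebpe* 12.7% ± 0.401, *Cebpd* 7.72% ± 0.146 and *Cebpa* 4.95% ± 0.101. In the Ctrl IPs the share of *Cebpd* was 17.9% ± 1.07 and that of *Cebpb* 66.7% ± 0.859. In the IR Inputs the shares were 75.2% ± 0.520 for *Cebpb* and 3.93% ± 0.0189 for *Cebpa*.

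**Figure D1:**
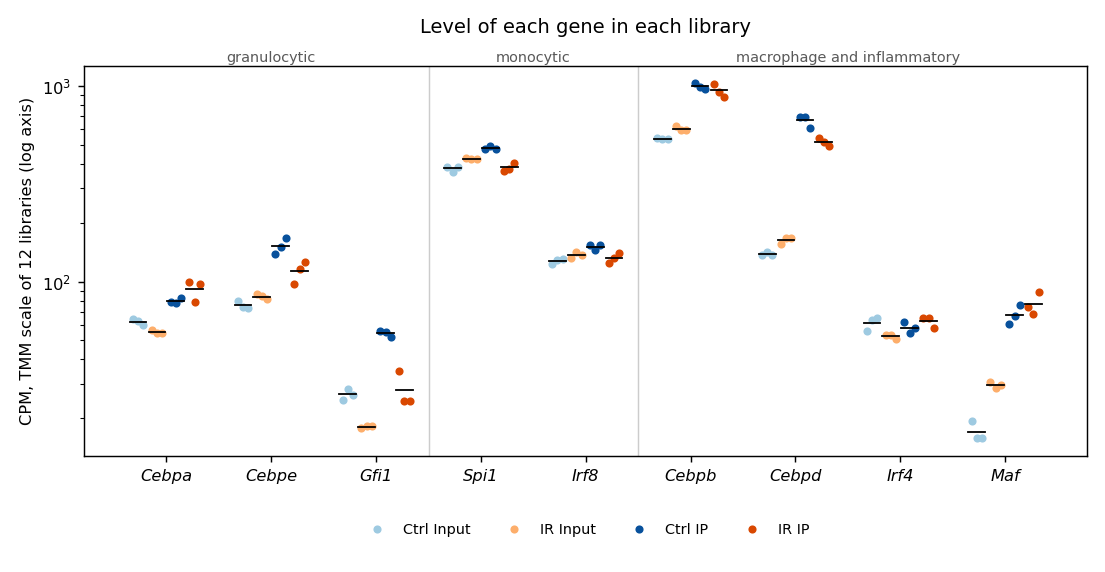
Level of each of the 9 genes in each of the 12 libraries, in CPM on the common TMM scale (log axis); points are libraries, bars are means of 3, and colors give the group. The *Cebpd* IPs, at 493 to 696 CPM, lie above the *Cebpd* Inputs at 137 to 168 CPM, whereas the 4 groups of *Irf4* lie close together between 51.1 and 65.4 CPM.

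The 12 libraries held no IP with a control antibody or from *Ythdf2*-deleted cells. IP over Input therefore cannot separate YTHDF2 binding from background recovery of a transcript. Binding intensity here means log2(IP/Input). For each pool it was taken from the Input and IP libraries with the same number on the scale of the plot of levels, and for the tests from the edgeR fit, whose TMM factors came from the libraries of that comparison alone. In Ctrl, 8 of the 9 genes were higher in IP than in Input at an adjusted p under 0.05 (quasi-likelihood test of edgeR, Benjamini-Hochberg adjustment across all tested genes) and so were called YTHDF2 targets, and none was lower. Across all genes tested, 34.1% were called higher and 34.6% lower. The median log2 fold change of the 9 was 0.96, against 0.02 over all genes tested. In IR, 7 of the 9 were called targets and none was lower, where 32.1% of all genes tested were called higher and 30.4% lower, with a median of 0.68 against 0.10. These counts depend on the scale: with all uniquely aligned reads as library size, 5 members were higher and 3 lower in Ctrl, and 4 higher and 2 lower in IR. The IP and Input libraries did not overlap for 8 of the 9 genes in either condition, as for 73.1% of all genes tested in Ctrl and 69.5% in IR.

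**Figure D2:**
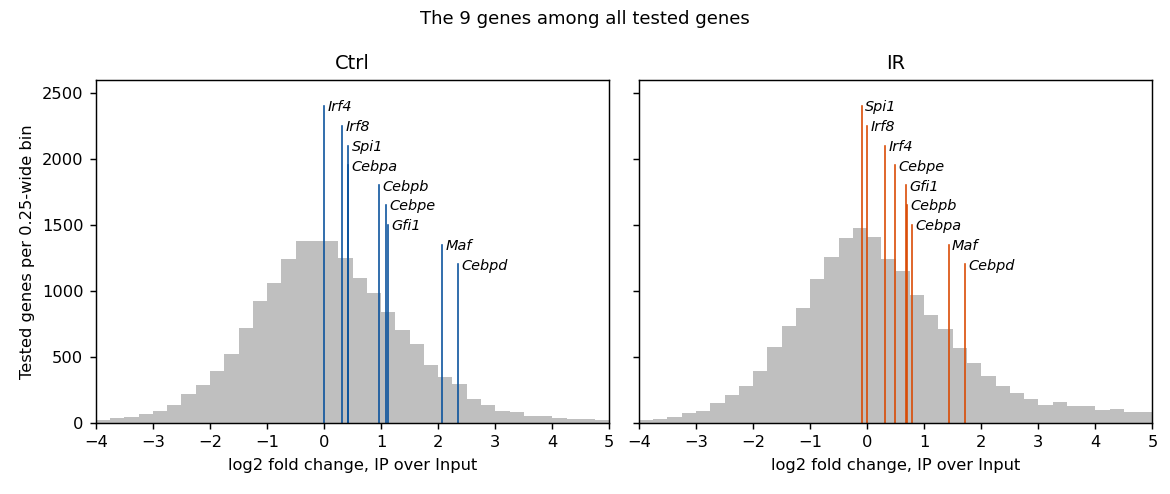
Number of tested genes in each bin of log2(IP/Input) from the tests (0.25 wide, gray), in Ctrl and in IR, with a line for each of the 9 genes. In Ctrl *Cebpd* (2.34) and *Maf* (2.07) lie above 94.0% and 91.9% of tested genes, and *Irf4* (-0.0066) above 49.2%.

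Among the granulocytic genes, *Cebpa* (chr7:35119293-35121928, + strand, mm10, 1 exon) had counts in Ctrl Inputs worth 64.1, 62.9 and 60.3 CPM and in Ctrl IPs worth 78.2, 77.9 and 82.8 CPM. In IR it stood at 56.7, 54.8 and 54.4 CPM in the Inputs and 99.0, 78.2 and 97.2 CPM in the IPs. The IPs lay above the Inputs in both conditions, the IR Inputs lay below the Ctrl Inputs, and the second IR IP was as low as the Ctrl IPs. Its log2(IP/Input) was 0.43 in Ctrl (SE 0.059, adjusted p = 5.36e-06, edgeR) and 0.78 in IR (SE 0.094, adjusted p = 2.91e-05). The difference between conditions, IR minus Ctrl, was 0.38 (SE 0.11, adjusted p = 0.0198), and it lost the threshold in 4 of the fits that left out libraries, among them 0.36 without Ctrl Input replicate 1 (adjusted p = 0.0528) and 0.36 without IR Input replicate 3 (adjusted p = 0.052). In the Input *Cebpa* fell by 0.25 with IR on the log2 scale (SE 0.048, adjusted p = 8.05e-05). In the IP its log2 fold change with IR was 0.21 (SE 0.095, adjusted p = 0.155), and without IR IP replicate 2 it was 0.32 (adjusted p = 0.0204).

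*Cebpe* (chr14:54710360-54712174, − strand, 2 exons) was at 79.2, 74.2 and 73.5 CPM in the Ctrl Inputs and 139, 150 and 167 CPM in the Ctrl IPs. With IR it was at 85.9, 84.0 and 81.3 CPM in the Inputs and 97.3, 117 and 127 CPM in the IPs. Each IR IP was lower than each Ctrl IP, while the IR Inputs were slightly above the Ctrl Inputs. Binding intensity was 1.08 in Ctrl (SE 0.064, adjusted p = 7.3e-11, edgeR) and 0.49 in IR (SE 0.089, adjusted p = 6.62e-04), a difference of -0.57 (SE 0.12, adjusted p = 0.00127) that was -0.26 with library size only (adjusted p = 0.112). The Input did not pass the test between conditions (log2 fold change 0.068, SE 0.045, 95% interval -0.019 to 0.16, adjusted p = 0.225). In the IP *Cebpe* fell by 0.41 (SE 0.094, adjusted p = 0.00627). *Cebpe* is 1 of the 2 members with no GGACT in the principal transcript and was called a target in both conditions, in IR except with all uniquely aligned reads as library size (0.021). Over the coding genes tested in Ctrl, transcripts without the string had a median log2(IP/Input) of -0.69 and those with it -0.07. These groups were not matched for transcript length, and the part of length in this gap was not tested.

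*Gfi1* (chr5:107716657-107726036, − strand, 6 exons in the principal transcript) was at 24.9, 28.1 and 26.4 CPM in the Ctrl Inputs and 56.0, 55.5 and 52.1 CPM in the Ctrl IPs. In IR, its Inputs were at 17.8, 18.3 and 18.3 CPM and its IPs at 34.8, 24.6 and 24.5 CPM. Both fractions were lower after IR in every pool, and the first IR IP stood above the other two. Binding intensity was 1.12 in Ctrl (SE 0.077, adjusted p = 5.29e-10, edgeR) and 0.68 in IR (SE 0.15, adjusted p = 0.00245). The difference of -0.42 (SE 0.17, adjusted p = 0.087) did not pass the test, although it did without IR IP replicate 1 (-0.59, adjusted p = 0.00135). *Gfi1* fell by 0.63 in the Input (SE 0.074, adjusted p = 8.2e-08) and by 0.95 in the IP (SE 0.14, adjusted p = 1.22e-04), and 3.32% of genes tested in the IP had a lower log2 fold change.

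Of the monocytic genes, *Spi1* (chr2:91082390-91115756, + strand, 5 exons) was at 386, 365 and 383 CPM in the Ctrl Inputs and 476, 493 and 475 CPM in the Ctrl IPs. After IR, the Inputs were at 428, 423 and 422 CPM and the IPs at 369, 376 and 404 CPM. In Ctrl every IP was above every Input, and in IR every IP was below every Input. The log2(IP/Input) was 0.42 in Ctrl (SE 0.039, adjusted p = 3.05e-08, edgeR) and -0.09 in IR (SE 0.045, adjusted p = 0.0905), so *Spi1* was called a target in Ctrl alone. The difference was tested directly and was -0.50 (SE 0.058, adjusted p = 2.87e-06), past the threshold in all 23 alternative fits, at -0.53 to -0.18. In the Input *Spi1* rose by 0.09 (SE 0.031, adjusted p = 0.0258), a call lost when any of 4 single libraries was left out: Ctrl Input replicate 2 (0.055, adjusted p = 0.22) or 3, or IR Input replicate 1 or 3. In the IP it fell by 0.32 (SE 0.051, adjusted p = 3.32e-04).

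*Irf8* (chr8:120736358-120756694, + strand, 9 exons) was at 122, 128 and 131 CPM in the Ctrl Inputs and 153, 145 and 155 CPM in the Ctrl IPs. The IR Inputs held 132, 142 and 137 CPM and the IR IPs 125, 132 and 139 CPM. The groups were separate in Ctrl and overlapped in IR. Binding intensity was 0.32 in Ctrl (SE 0.048, adjusted p = 1.28e-05, edgeR) and 0.0026 in IR (SE 0.061, 95% interval -0.12 to 0.12, adjusted p = 0.973). The difference between conditions was -0.30 (SE 0.079, adjusted p = 0.00996), and it missed the threshold without Ctrl IP replicate 1 (-0.22, adjusted p = 0.0777) or replicate 3 (-0.21, adjusted p = 0.0919). It was -0.19 with at least 10 counts required in every library (adjusted p = 0.0688) and turned to 0.016 with library size only (adjusted p = 0.931). Neither fraction alone passed the test between conditions: the log2 fold change was 0.029 in the Input (SE 0.038, adjusted p = 0.58) and -0.18 in the IP (SE 0.069, adjusted p = 0.0937).

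For several members the call or the sign of IP against Input depends on the scale. When libraries were scaled to all uniquely aligned reads, so that reads assigned to no gene counted toward the total, *Spi1* (-0.09, adjusted p = 0.0402, edgeR), *Irf8* (-0.19, adjusted p = 0.00197) and *Irf4* (-0.52, adjusted p = 6.53e-06) were called lower in Ctrl, and *Cebpa* was at -0.09 (adjusted p = 0.199). In IR, *Irf8* (-0.47, adjusted p = 3.02e-04) and *Spi1* (-0.57, adjusted p = 1.39e-05) were then called lower. *Irf4* was at -0.17 in IR (adjusted p = 0.0984), *Cebpe* at 0.021 (adjusted p = 0.875) and *Gfi1* at 0.20 (adjusted p = 0.242), so that all 3 lost their IR target call. *Cebpb*, *Cebpd* and *Maf* kept their target calls in both conditions on that scale.

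**Figure D3:**
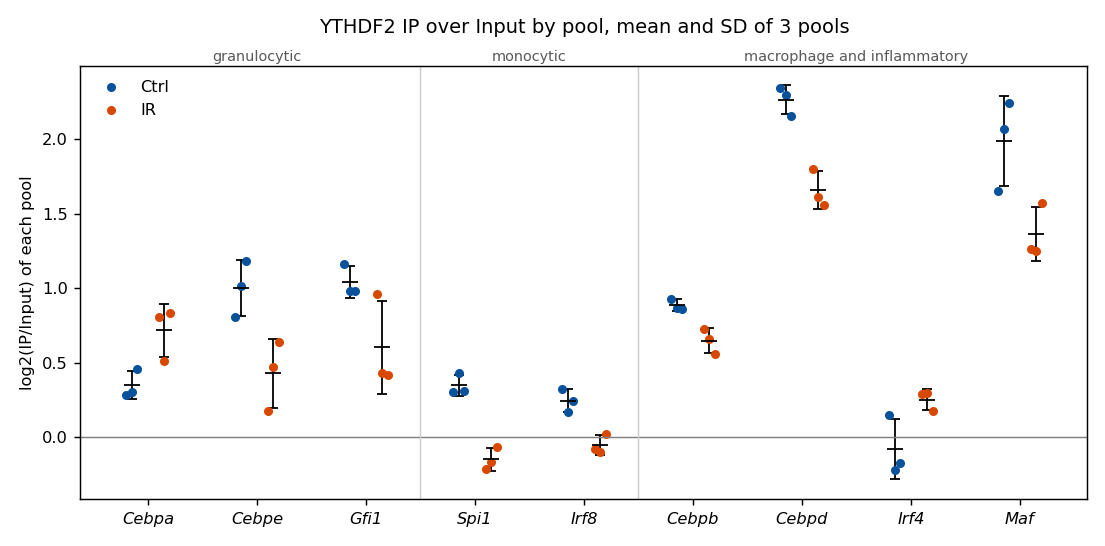
Log2(IP/Input) of each pool, from the IP and Input libraries with the same number on the TMM scale of 12 libraries, with mean and SD of 3 pools, for Ctrl (blue) and IR (orange). *Cebpd* ranged over 2.16 to 2.34 in Ctrl and 1.56 to 1.80 in IR, *Spi1* over 0.30 to 0.43 and -0.21 to -0.066, and *Cebpa* over 0.29 to 0.46 and 0.51 to 0.84.

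Among the macrophage and inflammatory genes, *Cebpb* (chr2:167688915-167690418, + strand, 1 exon) was at 540, 538 and 533 CPM in the Ctrl Inputs and 1030, 984 and 969 CPM in the Ctrl IPs. In IR these levels were 621, 593 and 597 CPM in the Inputs and 1027, 936 and 880 CPM in the IPs. The IPs were far above the Inputs in both conditions and overlapped between conditions. Its log2(IP/Input) was 0.96 in Ctrl (SE 0.035, adjusted p = 8.65e-14, edgeR) and 0.70 in IR (SE 0.054, adjusted p = 7.26e-07). The difference of -0.24 (SE 0.064, adjusted p = 0.0104) was lost in 9 alternatives and turned to 0.08 (adjusted p = 0.541) with library size only as the scale. It was lost without any single Ctrl IP, at -0.15 without replicate 1 (adjusted p = 0.147), and without IR IP replicate 3 (-0.12, adjusted p = 0.148). The Input was 0.09 higher with IR (SE 0.029, adjusted p = 0.0147), which missed the threshold without Ctrl Input replicate 2 (adjusted p = 0.0557) or 3, or without IR Input replicate 1 (0.069, adjusted p = 0.0935). The IP gave -0.06 (SE 0.052, adjusted p = 0.502).

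*Cebpd* (chr16:15887286-15891031, + strand, 1 exon) was at 137, 141 and 137 CPM in the Ctrl Inputs and 696, 694 and 609 CPM in the Ctrl IPs. After IR it was at 155, 168 and 167 CPM in the Inputs and 540, 514 and 493 CPM in the IPs. Its Inputs were higher and its IPs lower after IR, with no overlap in either fraction. Binding intensity was 2.34 in Ctrl (SE 0.051, 5.08-fold, adjusted p = 7.83e-17, edgeR) and 1.71 in IR (SE 0.053, 3.28-fold, adjusted p = 4.49e-10), the highest of the 9 genes in both conditions. The difference was -0.61 (SE 0.074, adjusted p = 4.58e-06) and passed the threshold in all 23 alternatives, between -0.65 and -0.30. *Cebpd* rose by 0.16 in the Input (SE 0.038, adjusted p = 0.00105; 0.13 and adjusted p = 0.0626 without replicate number 3) and fell by 0.36 in the IP (SE 0.057, adjusted p = 3.26e-04).

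*Irf4* (chr13:30749226-30766976, + strand, 9 exons) was at 55.7, 63.5 and 65.2 CPM in the Ctrl Inputs and 61.8, 54.5 and 57.8 CPM in the Ctrl IPs, which overlapped. In the IR Inputs it was at 53.5, 53.0 and 51.1 CPM and in the IR IPs at 65.4, 65.1 and 57.7 CPM, with every IP above every Input. Binding intensity was -0.0066 in Ctrl (SE 0.072, 95% interval -0.15 to 0.14, adjusted p = 0.94, edgeR) and 0.31 in IR (SE 0.079, adjusted p = 0.00566), so *Irf4* was called a target in IR alone. That IR call was lost with no filter on low counts (0.17, adjusted p = 0.134) and with all uniquely aligned reads as library size, and with library size only the Ctrl value was called lower (-0.19, adjusted p = 0.0323). The difference of 0.34 (SE 0.11, adjusted p = 0.0392) was lost in 9 of 23 alternatives. It became 0.33 (adjusted p = 0.0638) with IP and Input of a pool paired as a replicate block, and adjusted p-values of 0.0657 to 0.119 were reached when Ctrl Input replicate 2 or 3 or any single IR Input was left out. *Irf4* fell by 0.30 in the Input (SE 0.053, adjusted p = 3.28e-05) and gave 0.12 in the IP (SE 0.096, adjusted p = 0.454).

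*Maf* (chr8:115682942-115707794, − strand, 1 exon in the principal transcript) had the lowest level of the 9 in the Ctrl Inputs, at 19.3, 15.8 and 15.9 CPM, against 60.9, 66.5 and 75.6 CPM in the Ctrl IPs. After IR it was at 30.8, 28.6 and 29.6 CPM in the Inputs and 74.3, 68.1 and 88.1 CPM in the IPs. The IR Inputs were all above the Ctrl Inputs, and the IPs of both conditions overlapped. Binding intensity was 2.07 in Ctrl (SE 0.099, 4.19-fold, adjusted p = 3.51e-12, edgeR) and 1.43 in IR (SE 0.10, 2.69-fold, adjusted p = 4.7e-07), a difference of -0.62 (SE 0.15, adjusted p = 0.00518) that missed the threshold without replicate number 2 of every group (-0.50, adjusted p = 0.109) and with library size only (-0.31, adjusted p = 0.159). In the Input *Maf* rose by 0.73 (SE 0.081, 1.65-fold, adjusted p = 3.26e-08), above 94.5% of genes tested, and in the IP its log2 fold change was 0.19 (SE 0.11, adjusted p = 0.268).

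Over the 9 genes, the interaction was positive, that is binding intensity was higher after IR, at 2 (*Cebpa*, *Irf4*), where 6.28% of all genes tested were called higher, and lower at 6 (*Cebpb*, *Cebpd*, *Cebpe*, *Spi1*, *Irf8*, *Maf*), where 13.9% were called lower. The pools of Ctrl and IR did not overlap in log2(IP/Input) for any of the 9, as for 35.3% of all genes tested. The median difference of the 9 was -0.42, against -0.08 over all genes tested, and the counts depend on the libraries: with libraries or replicate numbers left out in turn, 0 to 2 members were higher and 3 to 7 lower. By class, the median difference was -0.42 for the 3 granulocytic genes, -0.40 for the 2 monocytic genes and -0.42 for the 4 macrophage and inflammatory genes. The granulocytic and the macrophage class each held 1 gene that was higher. Under library size only, the median of all genes was 0.23, 2 members were lower (*Cebpd*, *Spi1*) and 2 higher (*Cebpa*, *Irf4*), and 76.5% of all changed genes were higher, against 31.1% with TMM. The SD of log2(IP/Input) over the pools of a condition was 0.038 (*Cebpb*) to 0.30 (*Maf*) in Ctrl and 0.067 (*Irf8*) to 0.31 (*Gfi1*) in IR.

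In the Input, which carries transcript abundance, 4 of the 9 rose with IR (*Cebpb*, *Cebpd*, *Spi1*, *Maf*) and 3 fell (*Cebpa*, *Irf4*, *Gfi1*), where 21.0% of all genes tested were called higher and 23.9% lower. *Maf* and *Gfi1* moved most, at 0.73 and -0.63, and the changes of *Cebpb* and *Spi1* were both 0.09. By class, 2 of the 3 granulocytic genes fell and none rose, with a median of -0.25. Of the 4 macrophage and inflammatory genes 3 rose and 1 fell, with a median of 0.13, and 1 of the 2 monocytic genes rose. The class names only order the text, and a difference between classes was not tested. The count of 4 that rose was 2 without Ctrl Input replicate 2 or 3 or IR Input replicate 1, where *Cebpb* and *Spi1* were lost, and 1 without replicate number 3. The Inputs did not overlap between conditions for any of the 9, as for 53.8% of all genes tested. On the scale of all 12 libraries the median gene was 0.097 higher in the IR Inputs, against 0.0072 in the fit of the 6 Inputs. *Cebpe* and *Irf8* had separate Inputs on the former scale and did not pass the test of the latter. With all 12 libraries in one fit 63.6% of the changed genes were higher, against 46.8%, and *Cebpa* (-0.18, adjusted p = 0.139) and *Irf4* (-0.23, adjusted p = 0.052) were no longer called. Of the 10 neutrophil markers 6 were higher and 1 was lower in the IR Inputs. Of the 6 monocyte markers 3 were higher and 3 lower, and of the 7 macrophage markers 4 were higher and 3 lower. Of 6 tested dendritic cell markers 2 were higher and 3 lower, and of 4 B cell markers 1 was higher and 2 were lower. The part of these markers' cell types in the changes of the 9 genes was not tested.

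In the IP, 4 of the 9 fell with IR (*Cebpd*, *Cebpe*, *Spi1*, *Gfi1*) and none rose, where 9.85% of all genes tested were called lower and 6.12% higher. Their log2 fold changes ran from -0.95 (*Gfi1*) to -0.32 (*Spi1*). *Gfi1* was thus the single member that fell in both fractions, and *Cebpd* and *Spi1* fell in the IP while rising in the Input. The IPs of Ctrl and IR did not overlap for 5 of the 9, as for 34.1% of all genes tested. With library size only, 3 members were higher (*Cebpa*, *Irf4*, *Maf*) and 1 lower (*Gfi1*), and the median of all genes moved from 0.062 to 0.27. The comparisons of IP/Input, Input and IP share their libraries, so their values for a gene are not independent of each other.

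**Figure D4:**
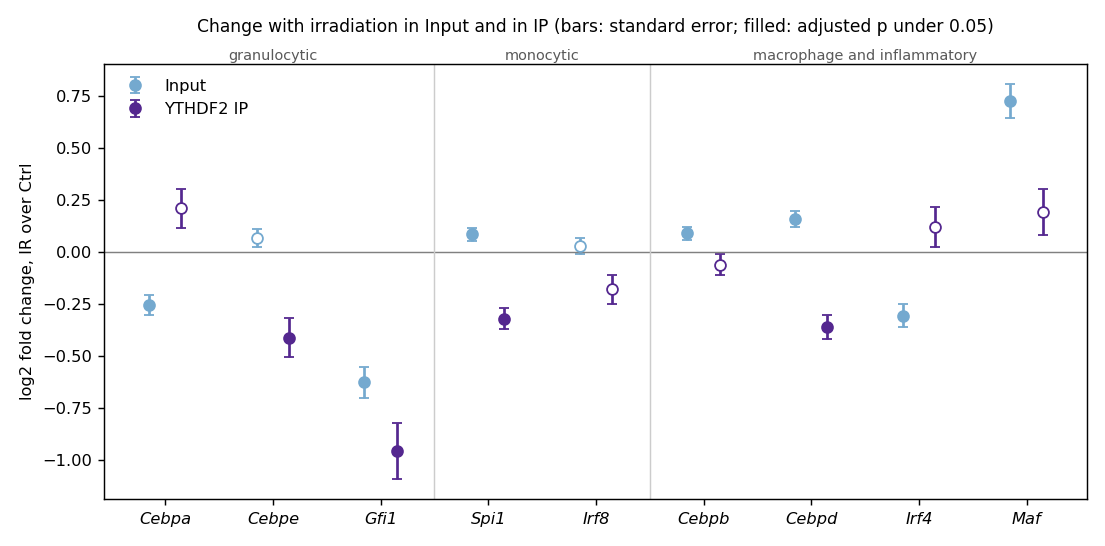
Log2 fold change with IR, IR over Ctrl, of each gene in the Input (light blue) and in the YTHDF2 IP (purple), from separate edgeR fits with standard error bars; filled points have an adjusted p under 0.05. *Gfi1* is below 0 in both fractions (-0.63 and -0.95), *Cebpd* is above 0 in the Input (0.16) and below 0 in the IP (-0.36), and *Maf* is highest in the Input (0.73).

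The genes differ in structure as well. *Cebpa*, *Cebpb*, *Cebpd* and *Maf* have a principal transcript of 1 exon, a form that 3.07% of 13042 coding genes shared. The median log2(IP/Input) of those 400 single-exon genes was 0.36 in Ctrl and 0.43 in IR, against -0.11 and -0.19 for the other coding genes. The values of the 4 members, 0.43 to 2.34 in Ctrl, were all above the single-exon median, and by the same measure the 5 members with introns ranged from -0.0066 to 1.12. The 3′ UTRs were longest in *Maf* (4316 bases), *Irf4* (3309 bases) and *Cebpd* (2900 bases) and shortest in *Cebpe* (179 bases). Exons of *Cebpb* and *Cebpd* overlap exons of *Tmem189* and *Spidr* on the opposite strand over 312 and 562 bases, or 20.7% and 15% of their length. *Cebpa*, *Gfi1* and *Maf* overlap opposite-strand genes over 1.93%, 3.17% and 5.34%. The strand option of the counting is not given in the sources used here, and without it reads from both strands in those stretches cannot be told apart.

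Of 37 tested relatives and cofactors of the 9 factors, 14 were higher and 16 lower in IP than in Input in Ctrl, with a median of -0.03, where 34.1% of all genes tested were called higher and 34.6% lower. In IR 13 were higher and 13 lower, beside 32.1% and 30.4% of all genes tested. The families differed in their counts, with no test of that difference. Both C/EBP relatives were targets: *Ddit3*, which codes for the stress factor CHOP, at 1.69 (SE 0.067, adjusted p = 2.52e-13, edgeR) and *Cebpg* at 0.96 (SE 0.067, adjusted p = 6.86e-10) in Ctrl. Of the 4 MAF relatives 3 were higher, among them the small MAF gene *Mafg* at 0.67 (SE 0.043, adjusted p = 2e-10). Of 6 tested IRF relatives 2 were higher and 3 lower, with *Irf5*, an inflammatory macrophage factor, at -0.78 (SE 0.050, adjusted p = 1.83e-10), and of 11 ETS relatives of *Spi1* 1 was higher (*Elf2*, 0.99, SE 0.055, adjusted p = 3.05e-11) and 7 were lower. *Gfi1b*, the single GFI relative, was not called. Of the 13 partners and cofactors 6 were higher and 5 lower, led by the acetyltransferase *Crebbp* at 2.31 (SE 0.035, adjusted p = 1.38e-18).

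With IR, binding intensity was higher at 5 and lower at 8 of the 37, beside 6.28% and 13.9% of all genes tested. *Ddit3* fell by 0.86 (SE 0.10, adjusted p = 3.31e-06, edgeR) and *Batf3*, which works with IRF8 in dendritic cells, by 0.92 (SE 0.098, adjusted p = 1.02e-06). All 3 called ETS relatives were higher, *Elf4* (0.38), *Etv6* (0.29) and *Etv3* (0.28), in the direction opposite to *Spi1*. The other 8 of the 11 ETS relatives were not called, and their values had both signs. In the Input 7 of the 37 were higher and 13 lower with IR (21.0% and 23.9% of all genes tested). *Ikzf1*, a hematopoietic zinc finger factor, fell by 0.53 (SE 0.041, adjusted p = 4.26e-11). In the IP 2 were higher and 6 lower (6.12% and 9.85% of all genes tested).

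Most transcripts listed as targets of the 9 factors were lower in IP than in Input. Of 20 such genes, 15 were lower and 3 higher in Ctrl, with a median of -1.42, where 34.6% of all genes tested were called lower and 34.1% higher. In IR 16 were lower and 2 higher, with a median of -1.71, beside 30.4% and 32.1% of all genes tested. The granulocytic targets *Camp* (-2.44, SE 0.049, adjusted p = 2.5e-17, edgeR), *Ctsg* (-2.18, SE 0.086, adjusted p = 2.53e-13) and *Prtn3* (-2.05, SE 0.051, adjusted p = 4.22e-16) code for granule proteins. *Lyz2*, lysozyme of macrophages and neutrophils, had a Ctrl level of 2470 ± 48.8 CPM in Input and 248 ± 13.0 CPM in IP (SD, n = 3). In the Input 8 of the 20 were higher and 7 lower with IR, beside 21.0% and 23.9% of all genes tested, and the 10 granulocytic targets were split into 4 higher, 4 lower and 2 not called. The primary granule genes *Mpo* (-1.99, SE 0.035, adjusted p = 4.44e-25), *Ctsg* (-1.32, SE 0.057, adjusted p = 2.39e-16) and *Elane* (-0.99, SE 0.041, adjusted p = 1.14e-16) fell most among the granulocytic targets, with *Mpo* at 293 ± 5.02 CPM in the Ctrl Inputs and 77.8 ± 0.558 CPM in the IR Inputs (SD, n = 3). Binding intensity of the 20 was higher in IR at 1 and lower at 11 (6.28% and 13.9% of all genes tested). In the IP 4 were higher and 9 lower with IR (6.12% and 9.85%).

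For each member the coding gene with the most similar pattern over the 12 libraries was found, by the root mean square difference of centred log2 CPM among 10576 genes. *Spi1* had the closest neighbor, *Kif5b*, a kinesin heavy chain, at 0.032. *Irf8* was nearest to *Samhd1* (0.054), *Cebpb* to *Hexim1* (0.061), *Cebpe* to *Phf3* (0.064), *Cebpa* to *Myo18a* (0.071), *Irf4* to *Ep300* (0.072) and *Cebpd* to *Fut7* (0.084). *Gfi1* and *Maf* had the most distant neighbors, *Mettl1* at 0.10 and *Gadd45g* at 0.12. No member was the nearest gene of another.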

How the data were processed

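CD11b+ myeloid cells of 12 libraries (Ctrl and IR, Input and YTHDF2 IP, 3 pools each) were analysed, with samples grouped by their titles. The authors trimmed reads with Trimmomatic 0.39 (version from the submitters' processing notes), aligned them to mm10 with GENCODE M19 genes and deposited raw HTSeq counts per gene, with no normalization. Removal of duplicate reads is not given in the sources used here, so floors cover counting error only. Of the gene identifiers, 99.93% matched GENCODE M21 of the same build, which gave symbols, coordinates, transcripts and lengths.

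After TMM normalization the counts were tested with edgeR 4.0.16 (quasi-likelihood test, R 4.3.3), where the study's methods name DESeq2. A gene entered a comparison with 10 or more counts in 3 or more of its libraries, p-values were adjusted over all genes tested by the Benjamini-Hochberg method, and 0.05 was the threshold. The 5 comparisons were IP against Input in Ctrl and in IR, their interaction over 12 libraries, and IR against Ctrl in Input and in IP. The SE was derived from the size of the log2 fold change and its F statistic (their ratio after taking the root of F). Intervals are the usual normal 95% ones, which can be narrower than the test allows. For *Spi1*, IP against Input in IR, the interval was -0.183 to -0.00611, although p was 0.061 (edgeR). Log2(IP/Input) of a pool used a prior count of 2. The steps were tested on simulated counts whose groups shared the same mean profile apart from a set of changed genes. Such counts do not show how TMM behaves where groups differ as widely as IP and Input do. TMM cannot show a change shared by most genes.

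IP and Input with the same number in a condition were taken as pairs, because by the methods the Input was saved from the same lysate. This pairing was used for log2(IP/Input) of a pool and in the replicate block, and the main tests were unpaired. Deviations of the paired libraries from the group means were hardly correlated (r from -0.0225 to 0.0398 across 11728 genes). Equal numbers in Ctrl and IR are different mice.

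The 9 genes, the lists of relatives, cofactors and targets, and the markers were chosen with earlier results of these data known. From each list, at most the 3 genes with the largest absolute log2 fold change past the threshold, and averaging 100 counts or more, were named in a comparison. Of these, 1 gene is not reported here. Nearest genes were coding genes with the same minimum. Alternatives were DESeq2 1.42.0, its size factors, library size only, all uniquely aligned reads as library size, no or a stricter filter, coding genes only, the replicate block, a joint fit of the 12 libraries and each library or replicate number left out. Per-kb levels by principal transcript length were added after the levels were seen.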

Additional observations from a re-analysis of the deposited data

Results flagged for a closer look

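For 8 of the 9 genes the effect of the IP differed between conditions by the test of the interaction itself (2 higher, 6 lower). Across all genes tested, 6.28% were called higher and 13.9% lower by that test. The differences of these 8 genes in log2(IP/Input), IR minus Ctrl, are the results marked for a closer look. They were 0.38 for *Cebpa*, 0.34 for *Irf4*, -0.24 for *Cebpb*, -0.61 for *Cebpd*, -0.57 for *Cebpe*, -0.50 for *Spi1*, -0.30 for *Irf8* and -0.62 for *Maf*. Those of *Cebpd* and *Spi1* stayed past the threshold in all 23 alternatives. Those of *Cebpa*, *Cebpb*, *Irf8* and *Irf4* lost it when single libraries were left out. With library size only, the differences of *Cebpe* (-0.26, adjusted p = 0.112, edgeR) and *Maf* (-0.31, adjusted p = 0.159) were no longer called, and those of *Cebpb* (0.075) and *Irf8* (0.016) turned. Groups of 3 libraries were too small to test for a library that stands apart.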

How the results depend on the processing

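Of 45 log2 fold changes (9 genes, 5 comparisons), 17 kept their call in all alternatives. A change of sign was counted only where at least 1 of the 2 fits compared was called. The uncalled change of *Cebpb* in the IP with IR, 1 of the 17, thus ranged from -0.11 to 0.15. Of 855 alternative values, 783 kept their call with no counted change of sign, 50 lost the call, 15 gained one and 7 turned. The 783 include uncalled values that changed sign, such as *Irf4* in Ctrl, at -0.0066 in the main fit and 0.019 with DESeq2. DESeq2 changed none of 45, and the replicate block changed only the *Irf4* difference, so that 1 member in place of 2 was higher in IR. For IR against Ctrl, in Input and in IP, the block joined equal numbers, which are different mice. Its values there rest on an arbitrary pairing. With all uniquely aligned reads as library size, *Cebpa* (-0.087), *Spi1* (-0.090) and *Irf8* (-0.19) turned in Ctrl and *Irf8* (-0.47) and *Irf4* (-0.17) in IR, leaving 5 members higher and 3 lower in Ctrl and 4 higher and 2 lower in IR. Of all genes called on that scale, 30.1% were higher in Ctrl and 33.1% in IR, against 49.7% and 51.4% with TMM. With library size only, the differences of *Cebpb* (0.075) and *Irf8* (0.016) turned. Then 1 member was lower in IP in Ctrl, 2 had a lower binding intensity in IR, and in the IP 3 were higher and 1 lower with IR. With no filter 1 member was lower in IP in IR and 1 had a higher binding intensity. With all libraries in one fit 1 was lower in IP in IR and 1 lower in the Input with IR. With at least 10 counts in every library 1 rose in the IP. The cause was not tested.

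With libraries or replicate numbers left out, targets stayed at 8 in Ctrl and 7 in IR, with 0 lower in either. Binding intensity was higher in IR at 0 to 2 and lower at 3 to 7 members, 1 to 4 rose and 3 fell in the Input, and 0 to 1 rose and 4 fell in the IP. Over all genes, TMM gave 1301 with higher and 2881 with lower binding intensity in IR, against 2862 and 877 with library size only, and 838 to 849 higher and 1786 to 1890 lower without replicate 2 or 3. In the IP 1179 rose and 1896 fell, against 2665 and 828 with library size only and 2125 and 2952 with all libraries in one fit, and leaving out replicates gave as few as 564 and 1097. In the Input 4047 fell, against 1500 with all libraries in one fit. Targets numbered 5943 in Ctrl and 5994 in IR, against 3718 and 3991 with all uniquely aligned reads, and 3979 in IR without replicate 2. Per-kb levels moved by more than 1 SD for 16 of 36 values with the principal length, and CPM levels for 20 of 36 with library size only. Depth limited no member, since the smallest count was 616.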
